A study of Homo sapiens with 12 samples.

Results

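N6-methyladenosine (m6A) was mapped in C4-2, a cell line that models castration-resistant prostate cancer, and 3328 peak intervals had the same chromosome, start, end and strand in all 6 m6A peak lists. They were chosen by those measured coordinates alone, out of 25666 regions formed by joining peaks that overlap on the same strand, and the peak scores played no part in the choice beyond the minimum that each list required. A further 2481 regions were held by all 6 lists with borders that differed, so the identical intervals were the larger share of the 5809 regions found in every library. The cells carried either an empty vector (genotype NC, treatment none) or an ALKBH5 overexpression construct (genotype and treatment oeALKBH5), with 3 replicates in each group. Each replicate gave an immunoprecipitated (IP) library, pulled down with an m6A antibody, and an input library that skipped this step, for a total of 12 libraries. The labels give neither the promoter and vector of the construct nor whether the replicates were separate cultures, so spread and p-values here measure only the differences between these libraries.

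m6A is the most abundant internal modification of mRNA. A nuclear methyltransferase complex built around METTL3 and METTL14 adds it within a short consensus sequence, the demethylases ALKBH5 and FTO remove it, and reader proteins of the YTH and IGF2BP families bind marked transcripts and alter their decay, translation or splicing. The mark is known to gather in long internal exons and around stop codons. An antibody pull-down recovers fragments that hold the mark and not the marked base itself, so a peak interval is a stretch of transcript with m6A somewhere in or near it.

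ALKBH5 mRNA in the input libraries was 64.9, 61.1 and 58.2 FPKM (fragments per kilobase, scaled to library size) in the NC replicates, and 80.3, 74.3 and 72.5 FPKM in the oeALKBH5 replicates, in order of replicate number. The groups did not overlap, and the difference of 0.30 on the log2(FPKM + 1) scale had p = 0.1 in a two-sided exact permutation test, the smallest that 3 libraries against 3 allow. All 10 markers of luminal prostate and C4-2 cells were present, with summed levels of 2359 to 2392 FPKM in NC and 2366 to 2592 FPKM in oeALKBH5 libraries. The 5 fibroblast markers summed to 3.86 to 12.6 FPKM in NC and 2.17 to 27.7 FPKM in oeALKBH5 libraries, with DCN and LUM listed at 0 throughout. The 5 immune markers summed to 0.344 to 4.28 FPKM in NC and 3.19 to 8.28 FPKM in oeALKBH5 libraries, none of them at 0 in every library. Of 3 endothelial markers, 2 were matched in the table, and they summed to 0.683 to 1.12 and 0.444 to 0.551 FPKM. The part of these cell types in the results on peaks was not tested.

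The peak lists had unequal lengths, and this bears on each percentile that follows. The NC lists held 11902, 11559 and 11619 peaks and the oeALKBH5 lists 16060, 11478 and 15052 peaks, here and below in order of replicate number. The oeALKBH5 group was thus split, with replicate 2 close to the NC lists and replicates 1 and 3 longer than any of them. The identical intervals made up 28.0%, 28.8% and 28.6% of the NC lists and 20.7%, 29.0% and 22.1% of the oeALKBH5 lists. They covered the same 1562881 bases in every library, which was between 16.9% and 20.2% of the bases covered by a list. Read depth is unknown, since only peaks and their scores were used here.

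Exact intervals were also counted by the number of lists that held them. Of all exact intervals, 33867 occurred in 1 list only, 2932 in 2, 1683 in 3, 1408 in 4, 1458 in 5 and 3328 in all 6 lists. Intervals in 5 lists, which just missed the rule, were absent from the NC lists in 177, 191 and 173 cases and from the oeALKBH5 lists in 195, 312 and 410 cases. The list most often lacking them was therefore oeALKBH5 replicate 3. Pairs of NC lists shared 5627 to 5766 exact intervals, pairs of oeALKBH5 lists 4963 to 5523, and pairs of 1 list from each group 5121 to 5669, so sharing between groups lay inside the span of sharing within them. Exact intervals in all 3 NC and no oeALKBH5 lists numbered 149, and those in all 3 oeALKBH5 and no NC lists 105.

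Among the 2481 regions with differing borders, 2240 had a single peak in each list. Their borders were seldom near misses: both borders stayed within 1 base in 17 of them, within 10 bases in 92 and within 50 bases in 357, and the median of the larger border range was 317 bases. Many regions with differing borders nevertheless kept 1 exact border: within them, all 6 lists shared 995 starts without the end and 994 ends without the start. Peaks of a list did not overlap on a strand, so a joined region with an identical interval could hold no other peak, by construction.

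The identical intervals had a median width of 205 bases, with quartiles of 132 and 536 bases, and the whole range ran from 15 to 6845 bases. The regions with differing borders had a median width of 1403 bases (quartiles 792 and 2241), a width that includes the spread of their borders. The other peaks of the lists, taken singly, had median widths of 492, 469 and 464 bases in the NC lists and 319, 474 and 298 bases in the oeALKBH5 lists, each above 205 bases. These other peaks are mostly intervals of a single list, whose median width was 579 bases. Exact intervals held by 2, 3, 4 and 5 lists had medians of 222, 212, 210.5 and 210 bases, so a width near 205 bases was common to intervals that recurred exactly and was not particular to those in all 6 lists. Of the identical intervals, 1231 (37.0%) were at least 100 and under 200 bases wide, against 1.05% of the regions with differing borders, and 386 (11.6%) were at least 1000 bases wide, against 65.4%.

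**Figure D1:**
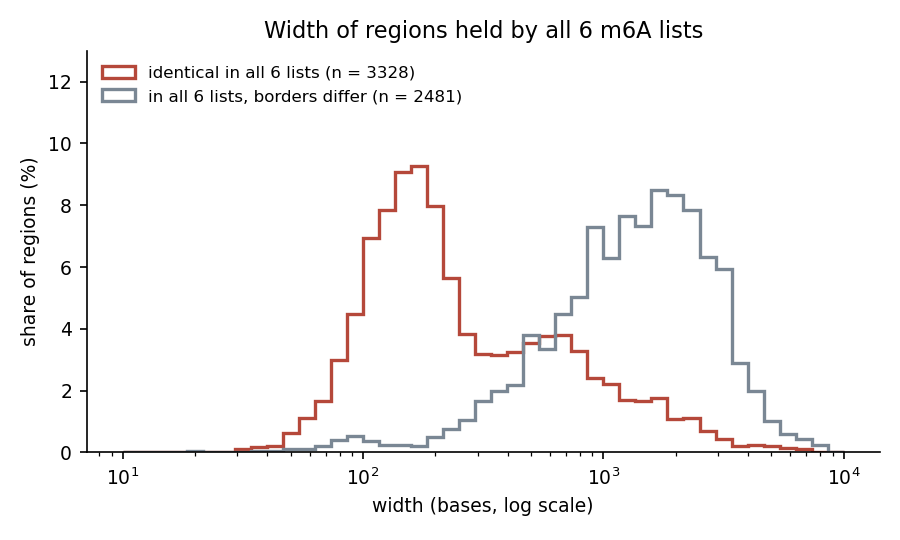
Width of the regions held by all 6 m6A lists, in bases on a log scale, as the share of 3328 identical intervals and of 2481 regions with differing borders. The identical intervals peak between 100 and 200 bases with a shoulder of wider intervals, and the other regions peak above 1000 bases.

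Widths of the identical intervals were more often a multiple of 3 than those of other peaks. A multiple of 3 was found in 1347 of 3328 (40.5%), while 31.1% left a remainder of 1 and 28.4% a remainder of 2. Over the 41348 other distinct peaks the share of multiples of 3 was 34.5%. The excess was present in each width class compared: 41.9% against 37.5% from 50 to under 200 bases, 40.1% against 34.2% from 200 to under 400 bases, and 38.6% against 33.5% at 400 bases and above. By the number of lists that held the exact interval, the share was 33.6% for 1 list, 38.3%, 37.8%, 38.4% and 38.8% for 2, 3, 4 and 5 lists, and 40.5% for 6. The commonest widths were 162 bases (22 intervals) and 171 bases (21 intervals), followed by 108, 114 and 126 bases with 20 intervals each, all 5 of them multiples of 3. Widths with 19 intervals each included 93, 105 and 141 bases, which are multiples of 3, and 109 and 133 bases, which are not. Widths are given as description, since the rule acted on start and end.

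The 3 widest identical intervals were chr10:129900843-129907687 on the minus strand (6845 bases), chr9:79319677-79326274 on the minus strand (6598 bases) and chr16:89345480-89352057 on the minus strand (6578 bases), in the build hg19. The files name no gene for a peak, and no annotation of hg19 was used here, so intervals are given by position. The chromosome 10 and chromosome 16 intervals had the score 3100 in every list. The chromosome 9 interval had it in all 3 NC lists and in oeALKBH5 replicate 1, with scores of 3058 and 1599 in oeALKBH5 replicates 2 and 3. The 3 narrowest were chr2:73689923-73689937 on the plus strand (15 bases), chr17:41331411-41331429 on the plus strand (19 bases) and chr1:151801905-151801934 on the minus strand (30 bases). Their mean within-list percentiles, defined below as the place of the score in its list, were 58.3, 45.9 and 51.5, so these shortest intervals lay near the middle of the lists.

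Scores rank peaks within a list. The score is the authors' value for each peak, it starts at 50 in each list, and many peaks share the value 3100, with a few above it. The within-list percentile of a peak is its rank by score as a percentage of the peaks in that list, so that 100 is the highest score. The median percentile of the identical intervals was 73.3, 73.1 and 74.4 in the NC lists and 79.4, 72.0 and 78.3 in the oeALKBH5 lists. The other peaks of the same lists had medians between 38.4 and 41.1. Identical intervals thus scored above the bulk of each list in all 6 libraries. The rule asked them to reach the minimum score in every list, which the other peaks, mostly of 1 list, did not have to do. For exact intervals in 1 to 6 lists, the median of the mean percentile was 39.1, 30.1, 33.4, 38.7, 47.1 and 72.8. The regions with differing borders were close to the identical intervals, however. Their medians were 71.8, 70.3 and 69.8 in NC and 79.2, 69.8 and 76.6 in oeALKBH5 lists, taking the highest peak of each region.

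**Figure D2:**
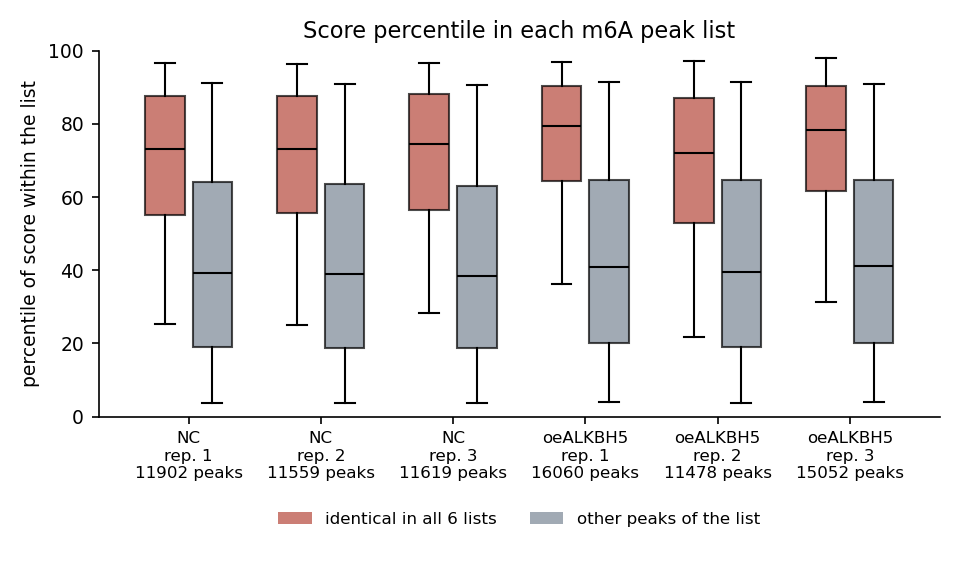
Percentile of the score within each m6A list for the 3328 identical intervals and the other peaks of the list (boxes, quartiles with the median; whiskers, 5th to 95th percentile). Identical intervals have medians from 72.0 to 79.4, above those of other peaks in every list, with the 2 highest medians in the 2 longest lists.

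The level of the score was only partly shared across libraries. In every list, 1974 identical intervals (59.3%) lay above the median, 492 (14.8%) in the top 10% and 47 (1.41%) below the median. The same shares of regions with differing borders were 51.9%, 8.50% and 1.41%. A score of 3100 or more was reached in every list by 275 identical intervals (8.26%, against 3.95% of the regions with differing borders) and in at least 1 list by 628. At the other end, 177 intervals scored under 60 in at least 1 list, and none did so in every list. Across the 3328 intervals, scores of pairs of libraries were correlated with Spearman's rho of 0.86 to 0.87 within NC, 0.80 to 0.83 within oeALKBH5 and 0.78 to 0.84 between the groups. The 3 lowest values, 0.78 to 0.79, all involved oeALKBH5 replicate 3. These correlations are across intervals that share libraries and are given without a test.

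The 10 intervals with the highest mean percentile all had 3100 or more in each list, and their order rests on small excesses over that value. The highest was chr9:136279785-136280131 on the minus strand (347 bases), with scores of 3100 in 4 lists, 3211 in oeALKBH5 replicate 2 and 3184 in oeALKBH5 replicate 3. Next came chr5:140033523-140033637 on the plus strand (115 bases), at 3207 in NC replicate 1 and 3100 elsewhere. The third was chr1:235377084-235377341 on the minus strand (258 bases), at 3144 in oeALKBH5 replicate 1 and 3100 elsewhere. Widths among these 10 ran from 115 to 1263 bases, so top scores were not limited to the widest intervals.

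Wider identical intervals had higher scores on the whole. The median of the mean percentile rose through the width classes, from 51.5 in the 25 intervals under 50 bases to 64.8 (356 intervals from 50 to under 100 bases), 67.7 (1231 from 100), 72.8 (664 from 200), 77.3 (666 from 400) and 85.6 (386 of 1000 bases or more). Over all 3328 intervals width and mean percentile had a Spearman rho of 0.27, a description across intervals that share the same 6 libraries. Width and the group difference of rank described below had a rho of 0.06.

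Within-list percentiles were a little higher in the oeALKBH5 lists, with the larger shifts in the 2 long lists. Whether list length accounts for this was not tested. The shift, oeALKBH5 mean minus NC mean, had a median of 1.02 percentile points over the identical intervals (quartiles -2.47 and 7.17; range -43.6 to 61.5) and was above 0 in 63.6% of them. Regions with differing borders had a median shift of 2.34 points, above 0 in 64.9%. An interval at 3100 in every list had a within-list shift of 0.789 points with equal scores, and so counted as above 0. Against the NC mean, the median shift of the identical intervals was 3.48 points in oeALKBH5 replicate 1 and 2.58 points in oeALKBH5 replicate 3, the 2 long lists, and 0.15 points in oeALKBH5 replicate 2. Without oeALKBH5 replicate 2 the median shift was 2.69 points. Percentiles from lists of different length do not show a change, so the comparison of groups was made on ranks over the same 5809 regions in each library.

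Ranking over the same regions gives every library the same mean rank, so the centre of the shifts over all 5809 regions is 0 by construction, and a median near 0 does not show that the groups are alike. The median shift of the identical intervals was 0.23 percentile points (quartiles -7.35 and 5.27; range -60.4 to 57.3), with 1682 of 3328 above 0, beside 0.55 points for the regions with differing borders. The median size of the shift, regardless of sign, was 6.44 points. The median SD of a single interval between replicates was 7.27 points in NC and 9.0 points in oeALKBH5. A shift under 5 points was found in 42.1% of the identical intervals and in 36.0% of the regions with differing borders. Scores at the shared value of 3100 cannot separate intervals, which bounds the shifts of the highest ones. A region at 3100 in every list had equal scores and a shift of 0.55 points, also the median of the regions with differing borders. It counted as above 0 and as under 5 points. At 3100 or more in every list were 275 identical intervals (8.26%) and 3.95% of the regions with differing borders. The shares above 0 and under 5 points were not computed without them.

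**Figure D3:**
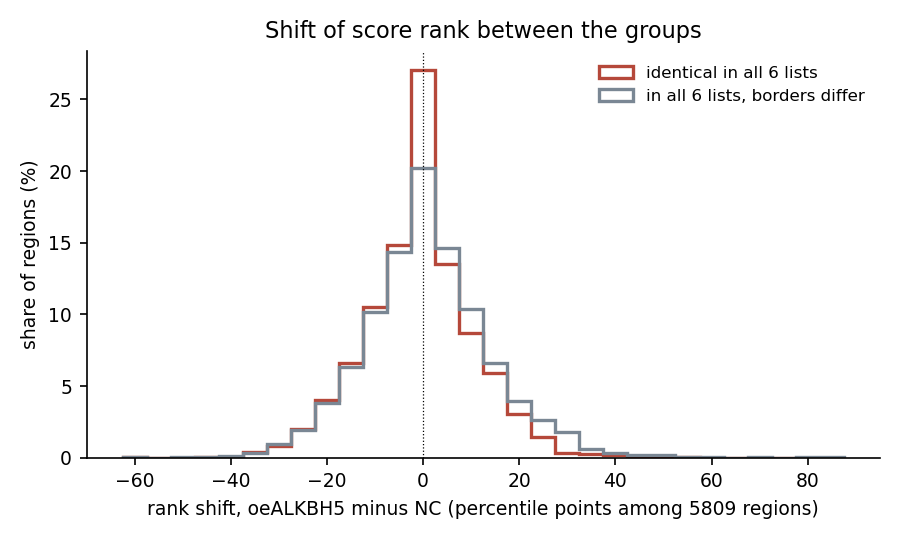
Shift of score rank, oeALKBH5 mean minus NC mean in percentile points over the 5809 regions of all 6 lists, as the share of identical intervals and of regions with differing borders. The ranking fixes the centre of all regions at 0, and what the plot shows is the width of the distributions. Under 5 points in size were 42.1% of identical intervals and 36.0% of the others. These shares include regions at 3100 in every list, whose shift was 0.55 points with equal scores. At 3100 or more in every list were 8.26% of identical intervals and 3.95% of the others.

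Of the 3328 identical intervals, 2 had a lower rank in oeALKBH5 libraries and none a higher one in limma's moderated test over all 5809 regions, at a Benjamini-Hochberg adjusted p under 0.05. The called members were 0.0601% of the identical intervals. Over all 5809 regions the shares were 0.0344% lower and 0.0861% higher. These 2 intervals were the only regions called lower, and the 5 regions called higher all had differing borders; whether the direction differed between the 2 kinds of region was not tested. At an unadjusted p under 0.05 stood 254 identical intervals (7.63%, against 9.19% of all regions), 84 higher and 170 lower. That direction depended on the scale: with percentiles of the full lists the unadjusted count was also 254, but 179 were higher and 75 lower, and none passed the adjusted test. Without oeALKBH5 replicate 1 the unadjusted count rose to 595, of which 400 were higher. The share of all regions at this threshold was not computed for these alternative fits. Whether their counts and directions are particular to the identical intervals is therefore not known. The 3 ranks of each group did not overlap in 190 identical intervals that were higher in oeALKBH5 (5.71%, against 6.87% of all regions) and in 305 that were lower (9.16%, against 8.47%). Within full lists, 598 of the 3328 were higher without overlap and 130 lower, beside 17.6% and 3.49% of all 5809 regions. An interval at 3100 in every list counted as higher here with equal scores. Its tied percentiles were 96.8, 96.5 and 96.7 in NC and 97.0, 97.2 and 98.1 in oeALKBH5 lists. At 3100 or more in every list were 275 identical intervals (8.26%) and 3.95% of the regions with differing borders.

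The first of the intervals with a lower rank was chr15:44846751-44846865 on the plus strand, 115 bases wide. Its scores were 3100, 3123 and 3186 in the NC lists and 2428, 1662 and 1438 in the oeALKBH5 lists. All 3 NC libraries were at the shared top value or above it, and all 3 oeALKBH5 libraries were below it. On the common scale it stood at 97.8 ± 3.31 in NC and 81.8 ± 1.09 in oeALKBH5 (mean ± SD, n = 3 per group), a shift of -16.1 points (SE 2.29, limma adjusted p = 0.0164). The call was lost when NC replicate 2 (limma adjusted p = 0.0813), NC replicate 3 (0.117) or oeALKBH5 replicate 1 (0.0552) was left out. It was also lost with normal scores of the ranks (0.225), full-list percentiles (0.135), no intensity trend (0.302) or no regions at 3100 or more in every list (0.13).

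The other was chr8:27466454-27466603 on the minus strand, 150 bases wide. Its scores were 3163, 3100 and 3100 in the NC lists and 2559, 979 and 1079 in the oeALKBH5 lists. It stood at 95.8 ± 3.38 in NC and 76.5 ± 5.39 in oeALKBH5 (mean ± SD, n = 3 per group), a shift of -19.2 points (SE 3.23, limma adjusted p = 0.0333). Of the 6 fits that left out a library it passed in the 1 that dropped oeALKBH5 replicate 1 (limma adjusted p = 0.0426), and the adjusted p was 0.156, 0.0602 and 0.117 on dropping NC libraries 1, 2 and 3, and 0.0868 and 0.0806 on dropping oeALKBH5 libraries 2 and 3. It was 0.317 with normal scores of the ranks, 0.264 with log2 scores or full-list percentiles, 0.066 with ranks among the identical intervals alone, 0.304 with no intensity trend and 0.13 with no regions at 3100 or more in every list. A score below the top value in oeALKBH5 libraries was shared by both intervals, and both kept a within-list percentile of at least 84.5 in each library.

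Larger shifts occurred among intervals that did not pass the test. The 5 largest in each direction among those with groups apart were singled out after their values were seen and are given as values. On the common scale, chr19:55649329-55649442 on the minus strand (114 bases) was at 12.7, 9.49 and 0.551 in NC and at 51.7, 59.6 and 83.4 in oeALKBH5 libraries, a shift of 57.3 points (limma adjusted p = 0.12). The interval chr22:36536371-36538106 on the minus strand (1736 bases) was at 33.0, 12.3 and 40.5 in NC and at 74.9, 88.0 and 79.9 in oeALKBH5 libraries, a shift of 52.3 points (limma adjusted p = 0.123). The ranks of the 2 groups lay far apart in both. The next 3 were chr16:30535322-30537372 on the minus strand, chr17:78261614-78262162 on the plus strand and chr19:536951-537147 on the plus strand, with shifts of 47.5, 47.4 and 43.0 points.

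In the opposite direction, chr12:39733967-39734166 on the minus strand (200 bases) had scores of 214, 3225 and 3100 in the NC lists and 92.4, 144 and 129 in the oeALKBH5 lists. Its shift of -60.4 points (limma adjusted p = 0.305) rested on NC replicates 2 and 3, while NC replicate 1, at 20.4, lay next to the highest oeALKBH5 value of 16.9. The interval chr1:36219346-36219537 on the minus strand (192 bases) was at 83.3, 70.7 and 79.4 in NC and at 50.1, 40.7 and 16.4 in oeALKBH5 libraries, a shift of -42.1 points (limma adjusted p = 0.226). The next 3, chr2:97910894-97911808 on the plus strand, chr13:79945977-79946065 on the minus strand and chr1:205698700-205698749 on the minus strand, had shifts of -40.4, -37.9 and -37.3 points. In these 3 the lowest library was oeALKBH5 replicate 3, at 1.31, 11.6 and 11.7.

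**Figure D4:**
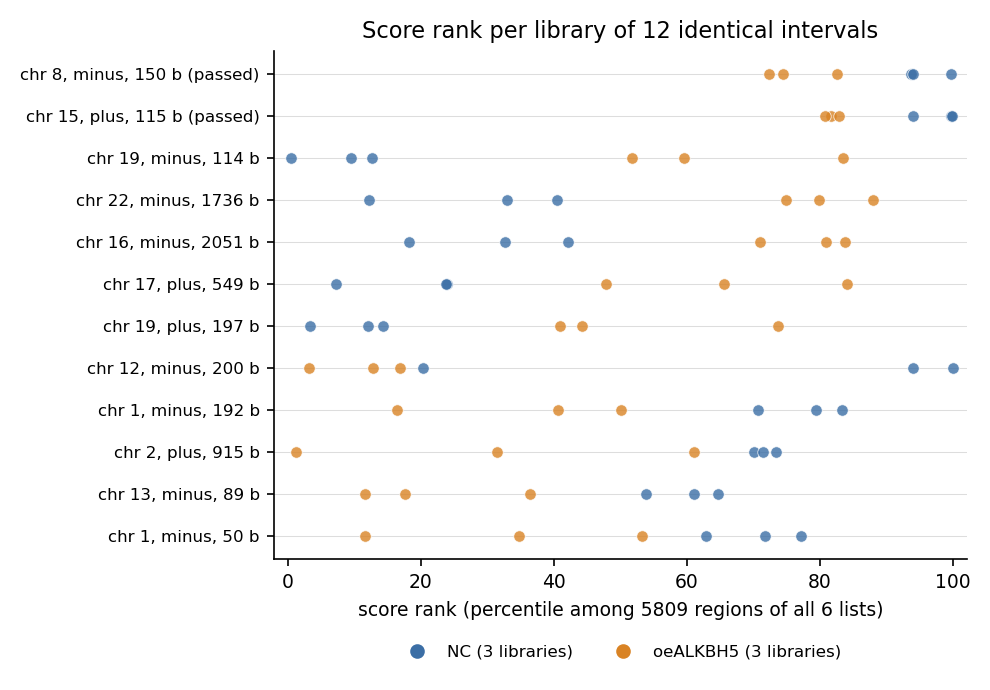
Score rank of 12 identical intervals in each library, as percentile among the 5809 regions of all 6 lists (points, single libraries). The 2 intervals marked as passed are those with adjusted p of 0.0333 and 0.0164, and the other 10 have the largest shifts among intervals with groups apart.

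Spread between replicates depended on the level. With the identical intervals divided into 4 equal groups by mean within-list percentile, the lowest group (15.4 to 56.3) had a median SD of the common-scale rank of 9.19 points in NC and 11.1 points in oeALKBH5. It was largest in the second group (56.3 to 72.8), at 11.5 and 13.5 points, and smallest in the highest group (87.3 to 97.8), at 1.72 and 2.97 points, where scores meet the shared top value. Median shifts in the 4 groups were 0.83, -1.69, -1.43 and 0.55 points, from the lowest group to the highest, and 0.55 points is also the shift of an interval at 3100 in every list.

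Strands and chromosomes were used by the rule only as part of the identity. The plus strand held 1701 identical intervals (51.1%) and the minus strand 1627 (48.9%), beside 51.4% and 48.6% of the regions with differing borders. Median widths were 204 and 207 bases, and median shifts on the common scale 0.40 and -0.01 points. No identical interval overlapped another on the opposite strand. Dropping the strand from the rule left the count at 3328.

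Chromosome 1 held the most identical intervals, 359 (10.8%), followed by chromosome 2 with 210, chromosome 19 with 209 and chromosome 5 with 197, and the Y chromosome held 1. Identical intervals as a share of the regions found in all 6 lists ranged over the autosomes from 48.4% on chromosome 19 to 62.7% on chromosome 15, and stood at 52.0% on the X chromosome. Chromosome 5 was uneven between strands, with 131 intervals on plus and 66 on minus, and so was chromosome 21, with 31 and 13. Median widths by chromosome, leaving out Y, ran from 181 bases on chromosome 4 to 282 bases on chromosome 16. The median mean percentile was lowest on chromosome 18, at 60.4 over 42 intervals, and highest, again leaving out Y, on chromosome 5, at 77.8. Median shifts on the common scale, Y left out, stayed between -2.02 points on chromosome 6 and 1.79 points on chromosome 21. No difference between chromosomes was tested.

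Some identical intervals had close neighbours of the same kind. Runs were not counted for other regions, so whether this is particular to them is not known. Of 3328, 1361 (40.9%) fell into 515 runs of 2 or more on 1 chromosome and strand with gaps of at most 10 kb, and 1967 stood alone. There were 338 runs of 2, 103 of 3, 28 of 4, 26 of 5, 12 of 6, 5 of 7, and 1 each of 8, 9 and 10 intervals. The smallest gap between 2 identical intervals on a strand was 571 bases. All peaks of a list came as close as 1 to 20 bases, but a part of a list cannot have a smaller minimum gap than the whole. Neighbouring intervals may lie on the same transcript, so members of a run are not independent measurements.

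The longest run lay on the plus strand of chromosome 1, from 214791916 to 214826332, a span of 34417 bases that held 10 intervals with a summed width of 7450 bases. Of these, 8 were 122 to 203 bases wide and 2 were long, chr1:214813264-214816667 (3404 bases) and chr1:214817900-214820743 (2844 bases). Both long intervals scored 3100 in every list. The lowest was chr1:214805823-214805945 (123 bases), with within-list percentiles of 44.6, 23 and 30.9 in NC and 46.6, 55.7 and 48.9 in oeALKBH5 libraries, and a mean of 41.6. One run thus covered most of the range of scores. Shifts on the common scale ran from -19.4 points at chr1:214822018-214822170 to 13.9 points at chr1:214811209-214811344, with 5 of 10 above 0, and the smallest limma adjusted p in the run was 0.573. The groups were apart in 1 of the 10, the interval with the shift of 13.9 points. Widths of 6 of the 10 were multiples of 3. The next longest runs were 9 intervals on the minus strand of chromosome 3 (167742716 to 167766153) and 8 on the plus strand of chromosome 5 (131924379 to 131953986).

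**Figure D5:**
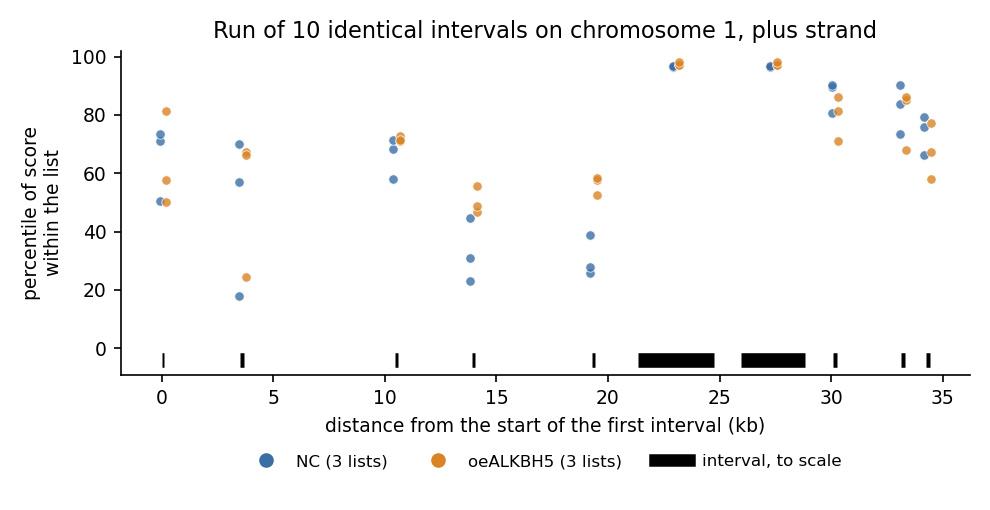
Within-list percentile of the score of the 10 identical intervals in the longest run, by distance in kb from the start of the first (points, single lists; black bars, intervals to scale). The 2 long intervals stand at 96.5 to 98.1 in all lists, and the short ones around them are lower and more spread.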

How the data were processed

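Tools listed in the submitters' processing notes are HISAT2 2.0.4, cutadapt 1.9.3, Cufflinks and Cuffdiff, with the build hg19. The peak score is the authors' deposited value, from a caller named MACS in the peak names; its options, its control and how intervals were trimmed are not given in the sources used here. FPKM is the likely unit of the deposited expression table, whose header names none. BED starts were raised by 1. Scores were ranked within each library over the 5809 regions of all 6 lists (overlap of at least 1 base), and ranks were fitted under R 4.3.3 by limma 3.58.1, using an intensity trend and Benjamini-Hochberg adjustment over all regions at 0.05. The fit was also run on simulated scores with a common spread and no shared top value. Those settings differ from these data, so that run does not bear on intervals at the shared top value. Expression used log2(FPKM + 1). Tables and figures used Python 3.11.15, pandas 2.3.3 and matplotlib 3.10.9.

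Intervals named are the 10 with the highest mean percentile, those that passed, the 3 widest, the 3 narrowest and the longest run, and others are marked as chosen after their values were seen. Members and lists were chosen with earlier results of these data known. Genes and sequences at the intervals were not analysed here.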

Additional observations from a re-analysis of the deposited data

How the results depend on the processing

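The number of intervals that passed limma's test, 2, was 0 with normal scores of the ranks, 4 with quantile-normalized log2 scores (2 higher, 2 lower), 1 with ranks among the identical intervals alone, 0 with percentiles of the full lists, 0 without the intensity trend, and 0 without regions at 3100 or more in every list, an alternative chosen after seeing the data. In the main fit, 0.121% of all regions passed. In these settings, in the same order, 0.0172%, 0.155%, 0.03%, 0%, 0.0172% and 0.092% of the regions fitted passed. The third of these was fitted on the identical intervals only. At an unadjusted p under 0.05, these settings gave between 235 and 307 intervals, with no matching share of all regions computed. Leaving out 1 library gave 1 to 7 intervals, most without oeALKBH5 replicate 1, but not the same ones. Of all regions, 0.0861% to 0.172% passed in these fits, again most without oeALKBH5 replicate 1. Of the 2 intervals of the main fit, 1 remained without NC replicate 1 or any single oeALKBH5 replicate. Neither remained without NC replicate 2 or NC replicate 3. With quantile-normalized log2 scores, 1 of the 2 was among the 4. With the replicate number as a block (replicate block) 22 passed, 7 higher and 15 lower, and 38 of all regions. The labels do not say that a number pairs libraries. Deviations of same-numbered libraries had correlations of 0.03, 0.03 and 0.02, and those of other numbers lay between -0.02 and 0. Deviations from a group mean sum to 0 within the group, so a positive value for same numbers lowers the others. Values this small do not show that a number pairs libraries. The count of identical intervals was 3328 to 3738 over the alternatives, and leaving out a list or loosening the rule cannot lower it. Their median within-list shift was 0.71 to 2.69 points. It was 0.23 points when ranked over the common regions, where the centre of all regions is fixed at 0. The ALKBH5 difference was 0.25 to 0.34 on the log2 scale over fits that left out a library, and kept its direction. With no read counts, the precision of a single score is unknown.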
